A study of Danio rerio with 4 samples.

Results

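The quantity described here is the difference between 2 injury changes in larval zebrafish hearts: the log2 change from uninjured to injured hearts under SIS3, minus the same change under the vehicle DMSO. It was computed over all 4 libraries, for genes listed in every library with a mean level of at least 5 FPKM (fragments scaled by transcript length and library depth). That gave 7406 genes out of 18231 with a level in at least 1 library. A positive difference means that the injury change was more positive, or less negative, under SIS3 than under DMSO. Of the genes left out, 5985 were listed in all libraries but had a mean under 5 FPKM, and 4840 were missing from at least 1 library, 57 of which would otherwise have reached the mean level.

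All larvae carried Tg(vmhc:mCherry-NTR), in which a promoter of ventricular cardiomyocytes drives a nitroreductase fused to a red fluorescent protein. The 2 uninjured groups (DMSO, SIS3) were hearts at 5 days post fertilization (dpf) without ablation, and the labels do not say if these larvae met metronidazole (MTZ). The injured DMSO and injured SIS3 groups received 5 mM MTZ for 4 hours from 72 hours post fertilization (hpf), and their hearts were also taken at 5 dpf, 2 days after treatment. DMSO at 0.2% or SIS3 at 2 µM was present from 76 to 124 hpf. The labels put 2.17 µg of total RNA into the injured DMSO library and 1.95 µg into the injured SIS3 library.

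Nitroreductase turns MTZ into a toxic product inside the cells that make the enzyme, so the drug ablates ventricular cardiomyocytes and leaves the atrium and the other heart cells in place. Injured zebrafish hearts regrow muscle, and epicardial, endocardial and immune cells lay down a transient matrix while they do so. Transforming growth factor β (TGF-β) and activin ligands bind receptor kinases that phosphorylate Smad2 and Smad3, which then enter the nucleus with Smad4 and act on matrix, mesenchyme and feedback genes. SIS3 is a small molecule used to block the phosphorylation of Smad3.

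Each group had 1 library, so no value below carries an error, a p-value or a check by replicates, and a count of genes says how many lay past a fixed size. Levels are given as scaled FPKM. Where 4 values are listed, both uninjured libraries come first (DMSO, then SIS3) and both injured libraries follow (DMSO, then SIS3), with the difference of injury changes in parentheses. Each change is computed on log2(scaled FPKM + 1), where the added 1 shrinks the folds of weakly expressed genes, and a gene is called at 1 log2 unit, or 2-fold. Read depth is unknown. Coordinates are those of GRCz10 in the deposited tables.

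Across the 7406 genes the difference had a median of 0.05 and lay between −0.64 at the 5th and 0.87 at the 95th percentile. It was at least 1 for 293 genes (3.96%) and at most −1 for 112 genes (1.51%), so that 405 genes (5.47%) were called in either direction. The higher genes were 72.3% of these calls with scaled values, 57.6% with the deposited values unscaled (238 higher and 175 lower, median −0.09), and 62.5% with scaling by the upper quartile (255 and 153). The injury change itself was at least 2-fold up for 492 genes (6.64%) and down for 472 (6.37%) in DMSO, and up for 515 (6.95%) and down for 289 (3.9%) in SIS3. The difference was above 0 for 55.6% of genes and below 0 for 44.4%. These shares over all genes are the ones to set beside the list counts below. They include 195 genes that reached the mean level only through the injured SIS3 library. Of these 195, 43 were called higher, against 250 of the other 7211. Calls in the higher direction made up 3.45% of the 2784 genes with a mean of 5 to 10 FPKM, 3.71% of the 3610 genes from 10 to 50 FPKM and 6.23% of the 1012 genes above that. The lower calls went the other way, at 2.05%, 1.27% and 0.889%.

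**Figure D1:**
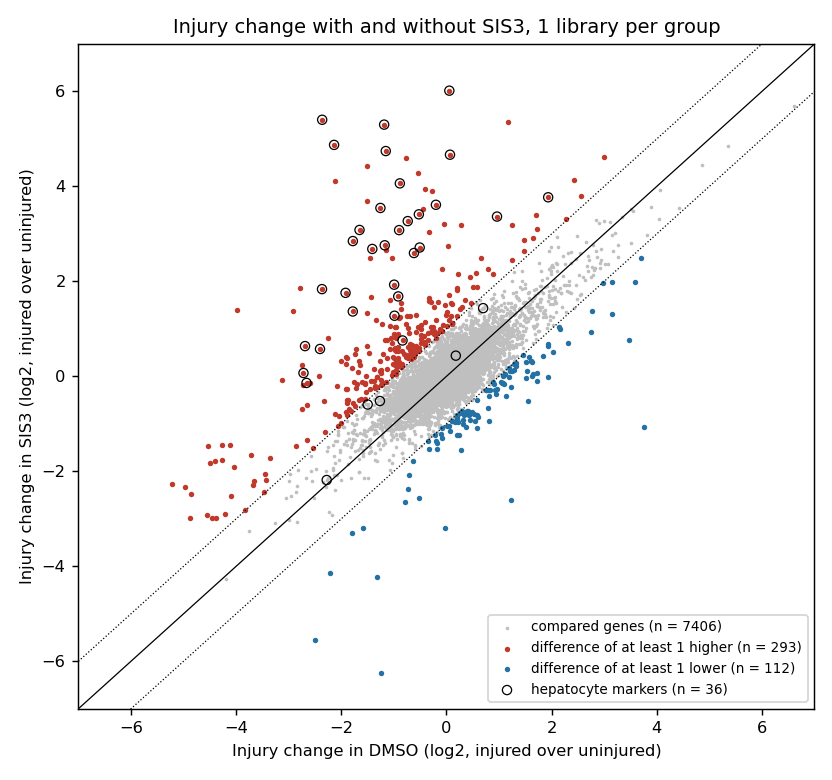
Injury change of each of the 7406 genes in DMSO (horizontal axis) and in SIS3 (vertical axis), both log2, 1 library per group. The solid line marks equal changes and the dotted lines a difference of 1, with 293 genes above (red), 112 below (blue) and 36 hepatocyte markers circled; most circles lie far above the line.

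Most called genes did not turn from up to down. The largest block of higher calls, 83 of 293, were genes at least 2-fold down after injury in DMSO and less than 2-fold changed in SIS3. Another 73 were less than 2-fold changed in DMSO and at least 2-fold up in SIS3, and 68 passed 2-fold in neither injury change alone. Among the lower calls, 39 of 112 were at least 2-fold up in DMSO only and 23 were at least 2-fold down in SIS3 only. Another 35 passed 2-fold in neither injury change alone. Changes past 2-fold in opposite directions were seen in 27 genes that were down in DMSO and up in SIS3, and in 2 genes that were up in DMSO and down in SIS3.

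The same difference can be read as the SIS3 change in the injured pair of libraries minus the SIS3 change in the uninjured pair, which shows which pair carries it. In the injured pair 169 genes (2.28%) were at least 2-fold higher and 47 (0.635%) lower with SIS3. In the uninjured pair 59 (0.797%) were higher and 94 (1.27%) lower. Of the 293 higher calls, 201 had the larger of these changes in the injured pair and 92 in the uninjured pair. The filter favours this split, since 43 of the 293 reached the mean level only through the injured SIS3 library. The 112 lower calls were divided more evenly, with 52 larger in the injured pair and 60 in the uninjured pair. For 48 of the higher and 30 of the lower calls, the uninjured pair alone was past 2-fold.

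Most of the 20 named genes with the largest positive differences encode proteins that the liver secretes into plasma. Of 36 hepatocyte markers compared, 31 were called higher and none lower, against 3.96% and 1.51% of all genes. The filter favours such a pattern, since 15 of the 36 reached the mean level of 5 FPKM only through the injured SIS3 library, and all 15 were among the calls. Of the 21 that reached it in the mean of the other 3 libraries, 16 were called higher. These counts were added after the data were seen, and the median difference of 3.50 over the 36 includes the 15. Their median injury change was −1.16 in DMSO and 2.7 in SIS3. The highest value belonged to the angiotensinogen gene. This gene, agt, on chromosome 13 at 23857992 to 23865426, was at 5.59, 0.531, 0.282 and 63.8 FPKM (difference 7.77). It was highest in the injured SIS3 library and low in both the uninjured SIS3 and the injured DMSO library. Agt was one of the 15 that reached the mean level only through injured SIS3.

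The 3 chains of fibrinogen, the clotting protein, followed the same order of libraries. The β chain gene fgb (chromosome 1, 9372135 to 9375385) was at 7.75, 3.92, 0.990 and 143 FPKM (7.01). The α chain gene fga, its neighbour at 9381989 to 9387428, was at 6.0, 2.74, 2.15 and 99.2 FPKM (5.90). The γ chain gene fgg, on the same chromosome at 24978970 to 24988554, was at 4.88, 2.02, 1.59 and 118 FPKM (6.49). For each chain the injured SIS3 library was the highest of the 4 and the injured DMSO library the lowest. Each chain reached the mean level only through injured SIS3.

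Protease inhibitors and complement genes were also among the highest differences. Serpina1, an inhibitor of neutrophil elastase, was at 5.47, 4.39, 5.73 and 348 FPKM (5.96), so that 3 libraries were nearly level and injured SIS3 stood alone. The terminal complement component c9 was at 3.45, 3.16, 2.05 and 79.5 FPKM (4.82), and complement factor B, cfb, at 1.68, 0.775, 0.574 and 41.7 FPKM (5.36). Plasminogen, plg, the precursor of the clot-dissolving protease, was at 2.21, 1.3, 0.735 and 37.5 FPKM (4.95). Of 24 complement and coagulation genes, which include the fibrinogen chains, 13 were called higher and none lower (median 1.52, and 0.45 by first exons alone). Of these 13, 12 reached the mean level only through injured SIS3, and 1 of the 12 members that reached it in the other 3 libraries was called. The median of 1.52 includes the 12 that passed only through injured SIS3. The lowest member was at −0.63. One of the members below 0 was the terminal pathway gene c7a, at 40.6, 39.3, 267 and 186 FPKM (−0.48), which was higher in both injured libraries.

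Lipid carriers of liver and gut were likewise higher in injured SIS3 than in injured DMSO. The apolipoprotein gene apoa2 was at 196, 112, 61.6 and 954 FPKM (4.74), and apoa1b at 318, 169, 92.0 and 1224 FPKM (4.63). The liver fatty acid-binding protein gene fabp10a was at 95, 43.3, 41.6 and 299 FPKM (3.93). Apoc1, an apolipoprotein made by liver and macrophages, was at 23.1, 23.1, 15.8 and 256 FPKM (3.94). The metabolic enzyme gene bhmt, of methionine synthesis from betaine, was at 60.2, 41.4, 15.2 and 143 FPKM (3.68).

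Summed over the 59 hepatocyte symbols found in the files, the level was 1622, 1032, 757 and 5364 scaled FPKM. Of these 59, 16 were missing from a library, each of them missing from injured DMSO, and 7 fell under the mean level. The antithrombin gene serpinc1 and the hepatocyte transcription factor gene hnf4a were not listed in injured DMSO, which can be a failed estimate, and were not compared. Their levels in injured SIS3 were 25.2 and 0.286 FPKM. In bulk RNA, more cells of a type and more RNA per cell cannot be told apart, and whether liver tissue was taken along with the hearts was not tested. Genes of the exocrine pancreas and intestine showed a second pattern, in which both injured libraries were below both uninjured ones. Summed over the 36 symbols found in the files, the level was 2226, 2750, 305 and 818 scaled FPKM. Of these 36, 29, 35, 19 and 26 were listed in the respective libraries, and a gene not listed counted as 0. Of 14 compared, 11 were called higher, or 78.6% against 3.96% of all genes, and none lower (median 2.44). The median injury changes of the 14 were −4.19 in DMSO and −1.81 in SIS3. The digestive protease gene ctrb.1 (chymotrypsinogen) was at 155, 182, 5.77 and 65.8 FPKM (3.07), prss1 (trypsinogen) at 357, 393, 10.4 and 78.0 FPKM (2.65), and the elastase gene cela1.2 at 182, 198, 9.51 and 72.0 FPKM (2.68).

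Skin genes were called higher in 8 of 23 cases, or 34.8% against 3.96% of all genes, and lower in none (median 0.74). With SIS3, 21 of the 23 skin genes were below 0 in the uninjured pair (median −0.39). In the injured pair 18 were above 0 (median 0.18). The summed level of the 38 skin symbols found in the files was highest in uninjured DMSO (5086, 3136, 3615 and 3893). The keratin gene krt4 was at 804, 434, 192 and 210.3 FPKM (1.02). Skeletal muscle genes were called higher in 4 of 17, or 23.5% (median 0.64). The summed level of the 39 muscle symbols found in the files was 6933, 5546, 2626 and 3273. The 7 lists of other tissues and plasma proteins together held 115 compared genes, of which 60 were called higher and 2 lower. Over all genes the shares were 3.96% and 1.51%. Of the 60, 35 were hepatocyte or complement genes, and these include the ones that reached the mean level only through injured SIS3. Without the 115 genes, 233 genes remained called higher and 110 lower, a count added after the data were seen. Of those 233, 149 had the larger SIS3 change in the injured pair. The 233 still include genes that reached the mean level only through injured SIS3, such as mmp9 and mmp13a.

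**Figure D2:**
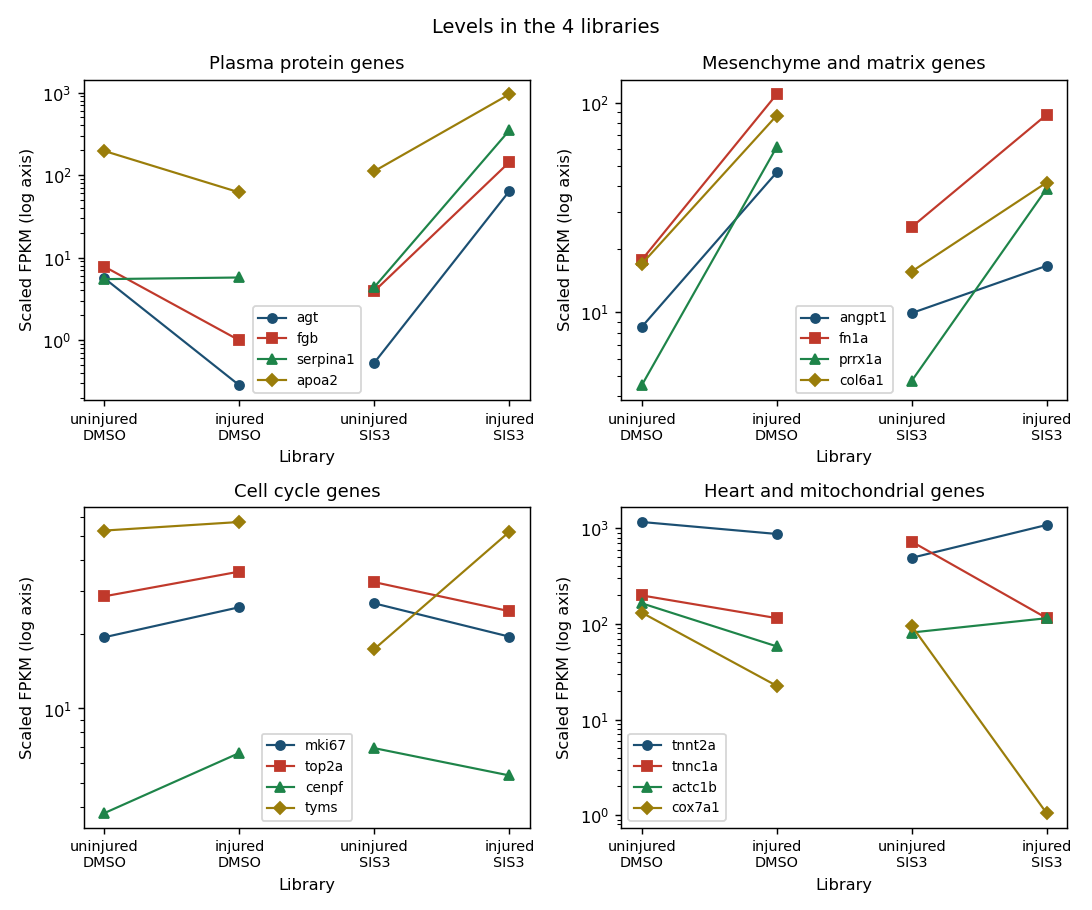
Levels of 16 genes in each library (scaled FPKM, log axis), with a line joining the uninjured and injured library of each compound. Plasma protein genes are highest in injured SIS3, with apoa2 also abundant in the uninjured libraries. Mesenchyme and matrix genes climb less steeply in SIS3. Mki67, top2a and cenpf point up in DMSO and down in SIS3, and tnnt2a and tnnc1a differ mainly between the uninjured libraries.

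Genes of mitosis leaned the other way, by small amounts. None of 59 compared genes of the G2/M list was called, but 52 lay below 0, against 44.4% of all genes, and the list median was −0.29. The median injury change was 0.16 in DMSO and −0.19 in SIS3. The proliferation marker mki67 (chromosome 12, 10328774 to 10343439) was at 19.5, 26.7, 25.7 and 19.6 FPKM (−0.82), so that the uninjured SIS3 library was as high as injured DMSO. Top2a, the topoisomerase that untangles chromosomes, was at 28.5, 32.5, 35.9 and 24.8 FPKM (−0.70), and −0.28 by its first exons alone. The centromere protein gene cenpf was at 3.77, 6.90, 6.60 and 5.35 FPKM (−0.99), close to the threshold. The cyclin gene ccnb1 was at 20.6, 21.9, 36.1 and 30.1 FPKM (−0.34) and the kinase gene cdk1 at 63.0, 59.21, 70.5 and 57.4 FPKM (−0.20). With SIS3, 52 of the 59 genes were below 0 in the injured pair (50.3% of all genes were) and 20 in the uninjured pair (57% of all genes were). The list medians with SIS3 were −0.22 and 0.07, so the lean of the list was mainly in the injured hearts. For mki67 and cenpf the SIS3 change was larger in the uninjured pair, at 0.44 and 0.73, against −0.38 and −0.26 in the injured pair.

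Genes of DNA replication and the G1/S transition leaned less, with 42 of 54 below 0, 1 called in each direction and a median of −0.18. The replication protein gene rpa2 was the lower call, at 26.7, 50.2, 23.5 and 18.5 FPKM (−1.21). The thymidylate synthase gene tyms was the higher call, at 52.7, 17.4, 57.0 and 52.0 FPKM (1.41). Both calls rest largely on the uninjured SIS3 library, which was the highest of the 4 for rpa2 and the lowest for tyms. The cell cycle inhibitor gene cdkn1a was at 30.6, 27.14, 41.4 and 21.7 FPKM (−0.73), lowest in injured SIS3.

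Several mesenchymal genes were higher after injury with either compound. Of 21 genes of the epithelial-to-mesenchymal transition (EMT), 18 lay below 0 and none was called (median −0.23). The injury change was above 0 for 15 of the 21 in DMSO (median 0.69) and for 14 in SIS3 (median 0.46). Prrx1a, a homeobox factor of mesenchyme, was at 4.49, 4.70, 61.3 and 38.8 FPKM (−0.70). The transcription factor gene snai2 was at 14.3, 15.06, 59.0 and 37.8 FPKM (−0.70). For both genes the uninjured libraries were nearly level and the injured ones apart. Fibronectin, a glycoprotein of the wound matrix, has 2 genes that differed here: fn1a was at 17.8, 25.5, 109.5 and 87.5 FPKM (−0.82) and fn1b at 78.9, 81.4, 439 and 454 FPKM (0.00). The intermediate filament gene vim was lower after injury, at 36.3, 26, 5.27 and 5.81 FPKM (0.59).

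Of 38 collagen and other matrix genes, 27 lay below 0, 2 were called lower and none higher (median −0.20). The collagen VI genes sit together on chromosome 11, at 33733724 to 33802894 for col6a1 and 33658556 to 33697516 for col6a2. Col6a1 was at 17, 15.6, 86.7 and 41.5 FPKM (−0.93) and col6a2 at 13.4, 13.9, 57.8 and 30.4 FPKM (−0.95). Their injured SIS3 level lay between the uninjured and the injured DMSO level. The collagen chaperone gene serpinh1b was at 11.8, 12.3, 38.9 and 20.5 FPKM (−0.94). The 2 called genes were elnb and col12a1b. The elastin gene elnb was at 85.3, 199, 23.8 and 19.297 FPKM (−1.5), a call carried by the uninjured SIS3 library. Col12a1b was at 0.841, 2.69, 15.3 and 8.18 FPKM (−1.83, and −0.94 by first exons), the same order of libraries as col6a2. It reached the mean level only through the injured DMSO library, so the filter favours its call. Its SIS3 change was 1.00 in the uninjured pair, at low levels, and −0.83 in the injured pair. For col6a2 these changes were 0.05 and −0.90. The main fibrillar collagen gene col1a1a was at 134, 125, 353 and 267 FPKM (−0.30), and col1a2 was at −0.33, or 0.53 by first exons alone.

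Enzymes that cut the matrix and their inhibitors were spread over both directions, with 1 of 29 called lower and a median of −0.22. The higher calls were 4 of 29, or 13.8% against 3.96% of all genes. Of these 4, mmp9 and mmp13a reached the mean level only through injured SIS3. The gelatinase gene mmp9, which neutrophils carry, was at 2.83, 2.21, 2.59 and 14.3 FPKM (2.34), high in injured SIS3 alone. The collagenase gene mmp13a was at 2.81, 1.43, 5.02 and 12.6 FPKM (1.83). Mmp2, a gelatinase of fibroblasts, was at 27.7, 25.1, 71.0 and 41.0 FPKM (−0.65). The inhibitor gene timp2b was at 4.39, 3.65, 42.2 and 114 FPKM (1.62), higher in both injured libraries and more so with SIS3.

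Calls among genes of the TGF-β pathway were about as frequent as over all genes (5.47% in either direction). Of 18 TGF-β and activin ligands, receptors and Smads, 11 lay below 0 and 1 was called lower (median −0.08). The called gene, the ligand tgfb1b, was at 2.4, 4.38, 14.1 and 10.1 FPKM (−1.10). Smad3a was at 5.20, 7.74, 8.11 and 7.46 FPKM (−0.60) and its paralog smad3b at 6.59, 6.73, 4.25 and 4.60 FPKM (0.07), values that measure their RNA and not the phosphorylation that SIS3 blocks. Of 26 genes that TGF-β commonly induces, 17 lay below 0 and 1 was called lower (median −0.09). That gene was pmepa1, a feedback inhibitor of the pathway, at 4.59, 10.9, 9.81 and 8.23 FPKM (−1.32), with the lowest value in uninjured DMSO and the other 3 close together. Smad7, which encodes an inhibitory Smad, was at 17.3, 12.4, 18.4 and 13.6 FPKM (0.04), lower with SIS3 in both pairs alike. None of 19 BMP and Id genes was called (median −0.13).

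Vessel and epicardial genes included a few lower calls. Angpt1, which encodes a ligand of the endothelial receptor Tie2 (chromosome 19, 47220676 to 47366372), was at 8.52, 9.92, 46.4 and 16.7 FPKM (−1.62), and stayed between −1.77 and −1.39 in the 11 other settings. It was raised in injured DMSO against the other 3 libraries. The receptor gene pdgfra of mesenchymal cells was at 9.66, 12.8, 8.25 and 4.40 FPKM (−1.15). Of 28 epicardium and fibroblast genes, 19 lay below 0, 1 was called higher and 1 lower (median −0.15). The endothelium and endocardium list had 1 lower call among 27 (median −0.06), the endothelial surface gene ecscr at 12.9, 26.8, 7.94 and 7.05 FPKM (−1.15). The higher epicardial call is krt4, also on the skin list, and the lower one is pdgfra. The secreted chaperone gene clu was at 7.46, 6.31, 346 and 209 FPKM (−0.51).

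Macrophage and neutrophil genes leaned apart. Of 27 macrophage markers 21 lay below 0, against 44.4% of all genes (median −0.21). Their injury medians were 1.75 in DMSO and 1.52 in SIS3. The growth factor receptor gene csf1rb was at 10.9, 8.16, 39.1 and 16.8 FPKM (−0.79). The amino acid transporter gene slc7a7 was the lower call, at 1.23, 3.41, 8.97 and 7.82 FPKM (−1.16). It would have missed the mean level without the injured DMSO library, and also without injured SIS3. The 2 higher calls on this list were the apolipoprotein genes apoc1 and apoeb, which liver or skin also express, and apoeb was at 77.0, 84.6, 36.2 and 178 FPKM (2.13). Of 10 neutrophil markers 9 lay above 0, against 55.6% of all genes, and 3 were called higher (median 0.54), namely mmp9, mmp13a and timp2b. All 3 are also among the calls of the matrix enzyme and inflammatory lists. The filter favours this lean, since 3 of the 10, with mmp9 and mmp13a among them, reached the mean level only through injured SIS3. The count above 0 and the median include these 3. Of the 7 that reached it in the mean of the other 3 libraries, 1 was called higher. Short of a call was the protease gene npsn at 4.58, 3.25, 21.2 and 27.22 FPKM (0.74).

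**Figure D3:**
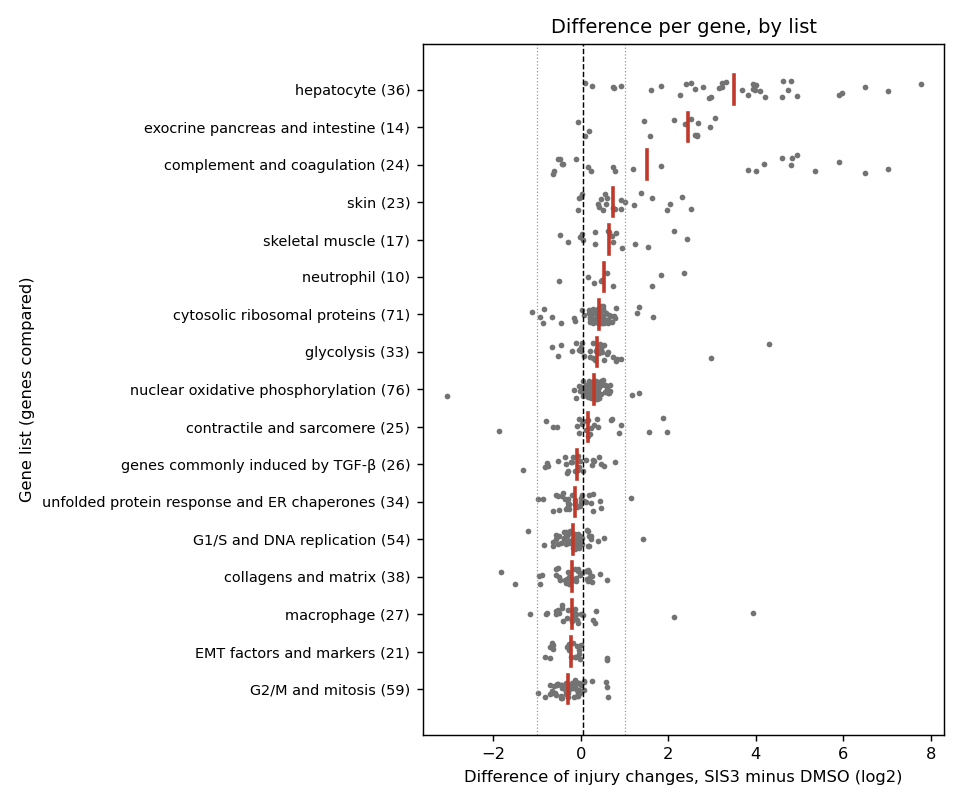
Difference of injury changes (log2, SIS3 minus DMSO) for each compared gene of 17 lists, with the number of genes in parentheses, the list median as a red bar, the median of all genes as a dashed line and differences of 1 as dotted lines. Liver, pancreas and complement genes extend far to the right, and the lists from TGF-β targets to G2/M lie slightly to the left of the dashed line.

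Ribosomal protein and mitochondrial genes had small positive differences in nearly every member. Of 71 cytosolic ribosomal protein genes, 63 lay above 0, against 55.6% of all genes (median 0.42). Higher calls were near the share of all genes, with 3 of 71 (4.2%, against 3.96%), and 1 was called lower. The lean came from the uninjured pair, in which 68 of 71 were below 0 with SIS3 (median −0.45), against 47 of 71 in the injured pair (median −0.07). Rpl10a was at 2731, 958, 722 and 798 FPKM (1.66), so that uninjured DMSO stood above the other 3. Rpl23 was likewise highest in uninjured DMSO, at 2403, 928, 923 and 864 FPKM (1.28). Rps18, at 1683, 1187, 624 and 1102 FPKM (1.32), had the larger SIS3 change in the injured pair (0.82, against −0.50 in the uninjured pair). The lower call, rps28, was at 380.3, 302, 427 and 155 FPKM (−1.12).

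Of 76 nuclear genes of oxidative phosphorylation, which encode subunits of the respiratory chain and ATP synthase, 70 lay above 0 (median 0.31). Of the 76, 2 were called higher (2.63%, against 3.96% of all genes) and 1 lower. Here too the uninjured pair carried the lean of the list, with 72 of 76 below 0 with SIS3 (median −0.32) and a median of −0.02 in the injured pair. The cytochrome c1 gene cyc1 was an exception, at 145, 193, 39.6 and 119.8 FPKM (1.16, and 0.87 by first exons). It was higher with SIS3 in both pairs, by 1.57 in the injured and 0.41 in the uninjured pair. Cox7a1, a muscle subunit of cytochrome oxidase (chromosome 15, 20467352 to 20470064), went the other way at 132, 96.0, 22.6 and 1.05 FPKM (−3.07). It was the only compared gene of that list called lower. Glycolysis genes lay above 0 in 26 of 33 cases (median 0.37), with 2 called higher. The liver form of pyruvate kinase, pklr, was at 14.4, 6.05, 1.03 and 17.2 FPKM (4.29). The general isoenzyme gene tpi1b was at 247, 205, 74.1 and 117 FPKM (0.92).

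**Figure D4:**
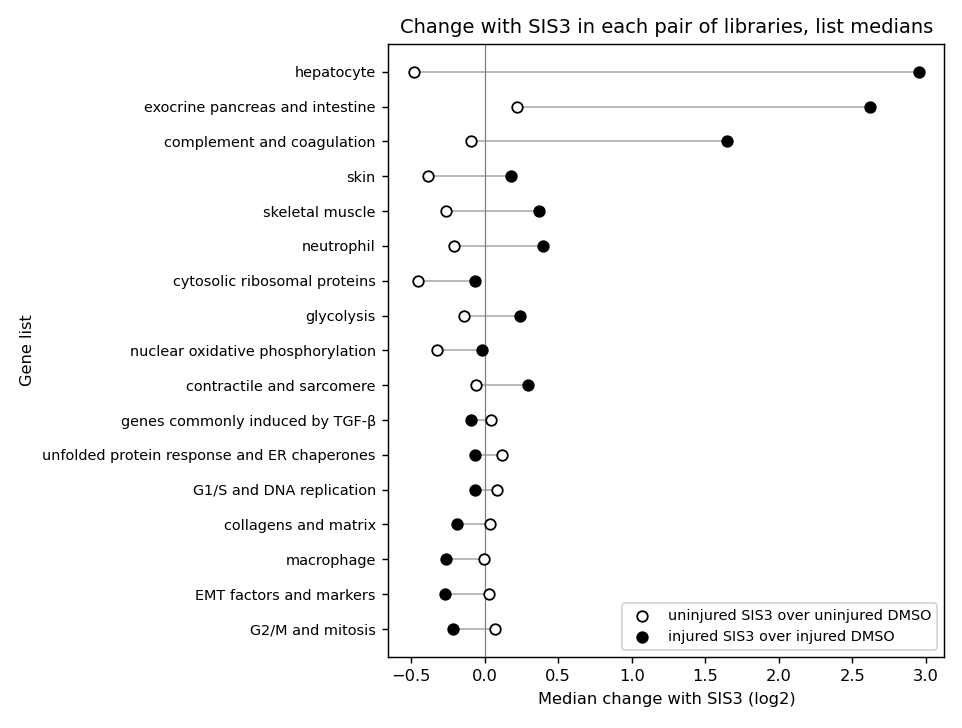
Median log2 change with SIS3 of each gene list in the uninjured pair (open circles) and in the injured pair (filled circles); the distance from open to filled approximates the difference of injury changes. Ribosomal and oxidative phosphorylation lists have their open circles at −0.45 and −0.32 and their filled circles near 0, while the hepatocyte list has its filled circle at 2.96.

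Contractile and other muscle genes did not share a direction. Of 25 contractile genes, 18 (72%) lay above 0, against 55.6% of all genes (median 0.17). Of the 25, 3 were called higher, or 12% against 3.96% of all genes, and 1 lower. The summed level of the 32 contractile symbols found in the files was 16863, 14789, 8833 and 9329 scaled FPKM, lower in both injured libraries. That of the separate list of cardiomyocyte markers, with 26 symbols found, was 13553, 12230, 11827 and 11798, a sum weighted to the most abundant genes. The median injury change of its 22 compared genes was −0.76 in DMSO and −0.62 in SIS3. It was below 0 for 18 of the 22 in DMSO and for 16 in SIS3. Of the 22, 1 was called higher and 2 lower, against 3.96% and 1.51% of all genes. Cardiac troponin T, tnnt2a, was at 1166, 492, 874 and 1085 FPKM (1.56), with uninjured SIS3 the lowest library. Troponin C, tnnc1a, was instead highest in uninjured SIS3, at 199, 728, 115 and 116 FPKM (−1.86), a difference all from the uninjured pair. The α-actin gene actc1b, not on the list of cardiomyocyte markers, was at 165, 81.4, 58.4 and 115 FPKM (1.97). Like the skeletal muscle gene pvalb2 (90.7, 41.7, 49.5 and 124 FPKM, 2.41), it was lower with SIS3 in the uninjured pair and higher in the injured pair. Which tissue its RNA came from was not tested. The calcium pump gene atp2a2a was at 370.4, 163, 171 and 148 FPKM (0.97). The atrial light chain gene myl7, expressed through the heart at this stage, was at 4998, 4076, 2807 and 2563 FPKM (0.16).

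RNA of the ventricular myosin entry (ENSDARG00000079782, named myh7 in RefSeq), on the minus strand of chromosome 2, was read from its first exons. Fewer ventricular cells and less RNA per cell cannot be told apart in these values. The first exon at 24614237 to 24614260 was at 181, 194, 79.4 and 83.8 FPKM, a difference of −0.02. The first exon at 24633949 to 24633992 was at 473, 674, 104 and 184 FPKM (0.31). Both exons were lower after injury with either compound. Natriuretic peptides, which stressed cardiomyocytes secrete, were higher after injury with either compound: nppa was at 1067, 1087, 3441 and 3531 FPKM (0.01) and nppb at 109, 100.2, 1826 and 1539.6 FPKM (−0.13). Their relative nppal was at 1.09, 2.38, 204 and 173 FPKM (−0.93, on levels near 1 FPKM in the uninjured hearts). Corin, which encodes the protease that activates the atrial peptide, was at 25.1, 31.3, 14.7 and 5.27 FPKM (−1.63). None of 22 cardiac transcription factor genes was called (median 0.15); nkx2.5 was at 64.1, 68.9, 28.5 and 33.7 FPKM (0.13) and gata4 at 18.5, 20.5, 24.7 and 18.3 FPKM (−0.55).

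Stress genes differed by group. Of 34 genes of the unfolded protein response and its chaperones, 22 lay below 0 and 1 was called higher (median −0.14). The called gene reached the mean level only through injured SIS3. The chaperone gene hspa5 was at 60.2, 72.1, 249 and 271 FPKM (−0.13), higher after injury with either compound, whereas calr3b was at 20.5, 25.4, 115 and 70.5 FPKM (−0.99). Among 20 heat shock genes 3 were called higher, or 15% against 3.96% of all genes (median 0.12). The inducible hsp70l was at 29.0, 9.73, 3.53 and 8.44 FPKM (2.54), and the constitutive hspa8 was at 3172, 1454, 2054 and 2060.5 FPKM (1.13), level in the injured pair. Of 14 genes of the aryl hydrocarbon receptor and drug metabolism, 2 were called higher, or 14.3% (median 0.28). Cyp1a, the main target of that receptor, was at 21.8, 53.3, 5.03 and 63.7 FPKM (2.17), higher with SIS3 in both pairs, and nqo1 was at 13.1, 12.1, 3.80 and 10.9 FPKM (1.42).

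Several further calls rested mainly on the uninjured pair. The lysosomal protease gene ctsl.1 was at 9.71, 149, 24.2 and 23.7 FPKM (−3.83), high in uninjured SIS3 alone. Mta3, a subunit of a chromatin remodelling complex, was at 0.595, 22.3, 20.7 and 10.1 FPKM (−4.84), low in uninjured DMSO alone. The adenylate kinase gene ak1 was at 172, 26.4, 63.3 and 86.1 FPKM (3.10), highest in uninjured DMSO. Pno1, a ribosome assembly factor, differed in both pairs, at 131, 29.5, 18.1 and 109 FPKM (4.65). The lowest difference belonged to the ependymin-like gene epdl2, at 2.94, 86.6, 0.670 and 0.145 FPKM (−5.02), high in uninjured SIS3 alone. The adducin gene add3a, of the membrane skeleton, was at 11.7, 45.1, 11.5 and 4.06 FPKM (−3.17), and col10a1a, a collagen of maturing cartilage and bone, at 3.80, 30.1, 0.930 and 0.653 FPKM (−2.92), both highest in the same library. Epdl2 and col10a1a reached the mean level of 5 FPKM only through uninjured SIS3, so the filter favours their low differences. The mitochondrial ADP/ATP carrier gene slc25a5 was at 2690.1, 6769.7, 1872 and 1142 FPKM (−2.04). The granulin gene grna.1 was at 0.166, 3.84, 12 and 7.25 FPKM (−2.71), lowest in uninjured DMSO. It reached the mean level only through injured DMSO. In the injured pair, the nucleolar protein gene npm1a was at 103, 114, 302 and 78.9 FPKM (−2.07), high in injured DMSO alone. A stricter count, of genes at 5 FPKM or more in every library and past 1 log2 unit in the main setting and in 7 alternatives of scaling, pseudocount and event, left 71 genes higher and 19 lower. Rpa2, angpt1, corin, npm1a, elnb, ctsl.1 and the erythroid factor klf1 (13.7, 20.2, 20.2 and 11.2 FPKM, −1.32) are among the 19. Around the mean level of 5 FPKM, the 3 genes just inside were cdip1, gsk3aa and vps53, with differences of 0.25, 0.19 and 0.36. The 3 just outside were si:ch73-380l3.1, atg9a and abitram, at −0.96, 0.78 and 0.14.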

How the data were processed

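Larval zebrafish heart RNA was sequenced in 4 libraries, 1 per group, each placed by its label. The deposited values are FPKM per transcript event, per the file headers, computed by the authors on GRCz10. CASAVA 1.8, HISAT2 2.0.5 and HTSeq 0.6.1 appear in the submitters' processing notes, without their roles, and no source used here names the program behind the tables. Read counts could not be recovered from the values, so depth is unknown and intervals for counting error cannot be given.

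Numbers below follow the order uninjured DMSO and SIS3, then injured DMSO and SIS3. There were 53363, 56660, 47926 and 51417 entries, and repeated ones (345, 346, 306 and 293) were counted a single time. Entries without a gene ID (2544, 3058, 2284 and 2785) were left out. First-exon FPKM and last-exon FPKM were each summed per gene, and the larger sum was its level. A gene not listed in a library may be a failed estimate, so the comparison used genes listed in all 4. The summed levels of lists instead cover every list symbol found in the files, with 0 where a gene was not listed. Scaling used the median of ratios (log2 factors −0.12, −0.02, 0.11 and 0.06), with a pseudocount of 1 FPKM. No test was run, since each group had a single library. The steps were tested on simulated data. Python 3.11.15, pandas 2.3.3 and NumPy 2.4.6 were used.

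Symbols were found for 17308 of 18296 gene IDs, 9625 of them told apart by neighbouring genes in RefSeq assembly GRCz12tu, from which no coordinates were taken. Compared genes on more than 1 locus numbered 201. The members, the 43 gene lists and the 62 genes named whatever their values were chosen with earlier results of these data known. Genes were named by rule: the 20 highest and 20 lowest differences, the 15 highest and 15 lowest at 5 FPKM or more in all libraries and past the threshold in 7 alternatives, up to 4 per list by size, the fixed genes, 3 on each side of the mean level and up to 10 with opposite injury changes. Serpinc1 and hnf4a, neither listed in injured DMSO, were named after their values were seen. Alternatives changed the scaling, the pseudocount, the filter on low values and the kind of event. No reference sequence was used here. The text describes some of the genes that the rule names, not all.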

Additional observations from a re-analysis of the deposited data

Results flagged for a closer look

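In 21 named genes the injury changes pointed in opposite directions past 2-fold, in the 1 library of each group, and the difference was not tested. Of these, 19 were lower after injury in DMSO and higher in SIS3. For genes of plasma proteins and lipid carriers the difference was 7.77 for agt, 7.01 for fgb, 6.49 for fgg, 6.25 for itih3b.2, 5.90 for fga, 4.80 for kng1, 4.74 for apoa2, 4.63 for apoa1b, 4.2 for fetub, 4.09 for ambp, 3.93 for fabp10a and 2.13 for apoeb. Among them, agt, fgb, fgg, itih3b.2, fga, kng1 and ambp reached the mean level of 5 FPKM only through injured SIS3, where they were highest. The dipeptidase gene cndp1 was at 52.2, 1.49, 2.37 and 5.57 FPKM in the uninjured DMSO and SIS3 and the injured DMSO and SIS3 libraries (5.38). It reached the mean level only through uninjured DMSO. The difference was 4.65 for pno1, 4.29 for pklr, 3.68 for bhmt, 3.10 for ak1, 2.67 for prxl2b and 2.52 for zgc:111983. In the opposite direction, mta3 had a difference of −4.84 and ctsl.1 of −3.83.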

How the results depend on the processing

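No paired analysis was possible because each group had 1 library, and for the same reason no replicate could be left out. The number of genes higher in the difference, 293, was 185 with a pseudocount of 5 FPKM, 450 with a mean level of at least 1 FPKM and 482 without a filter on low values. The number lower, 112, was 175 unscaled, 40 with a pseudocount of 5 FPKM, 280 with a mean of at least 1 FPKM, 58 with a mean of at least 10 FPKM and 319 without a filter. Among the 6081 genes at 5 FPKM or more in all 4 libraries, a count added after the data were seen, 161 were higher and 55 lower. The cause of these moves was not tested. Of the differences of named genes over the alternatives, 2464 kept their side of the threshold, 28 came past it and 32 fell short of it. Relative to the median of all genes, the list medians ranged over the 11 alternatives from −0.39 to −0.27 for G2/M, −0.32 to −0.22 for EMT, −0.28 to −0.18 for matrix, −0.32 to −0.18 for macrophages, 0.32 to 0.40 for ribosomal proteins, 0.21 to 0.30 for oxidative phosphorylation, 2.41 to 3.94 for hepatocytes and 0.40 to 1.78 for complement. The hepatocyte and complement lists include members that reached the mean level of 5 FPKM only through injured SIS3. Some genes depended on the event: loxa was at 0.77 and −0.25 by first exons, per2 at 0.86 and −2.64 by first exons.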

Other observations

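Calls in other gene groups follow, with levels given for uninjured DMSO and SIS3 and then injured DMSO and SIS3. Of 16 epithelial adhesion and junction genes, 15 lay above 0 and 3 were called higher, or 18.8% against 3.96% of all genes (median 0.21). The tight junction genes cldni and cldn7b were at 17.1, 14.0, 19.8 and 52.0 FPKM (1.63) and at 11.1, 9.80, 5.35 and 15.5 FPKM (1.54), and the adhesion gene epcam was at 10.04, 9.50, 6.94 and 17 FPKM (1.26). All 3 were highest in injured SIS3, the library in which liver genes were also highest. Whether these patterns are linked was not tested. Of 27 genes of fatty acid oxidation 21 lay above 0 (median 0.19), with the dehydrogenase gene acadm at 179, 162, 69.4 and 137 FPKM (1.12) and the uncoupling protein gene ucp1 at 14.98, 12.2, 1.54 and 7.67 FPKM (2.05). The sterol synthesis gene msmo1 was at 4.31, 4.002, 3.75 and 13.9 FPKM (1.73), the 1 call among 9. It reached the mean level only through injured SIS3.

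Of 26 circadian clock genes 1 was called in each direction (median 0.19). The nuclear receptor gene nr1d1, a repressor within the clock, was at 19.9, 19.6, 2.11 and 11.7 FPKM (2.05), low in injured DMSO alone, and clockb was at 7.04, 12.8, 5.32 and 4.33 FPKM (−1.02). Among 32 lysosomal genes, ctsh was at 10.3, 26.3, 33.8 and 26.4 FPKM (−1.62) and the autophagy receptor gene sqstm1 at 31.9, 31.1, 16.4 and 36.6 FPKM (1.15). Scpep1, a serine carboxypeptidase gene, was at 7.84, 18.5, 30.5 and 25.1 FPKM (−1.41), which like ctsh was lowest in uninjured DMSO. None of 40 proteasome genes was called (median 0.12), nor any of 10 Notch genes (0.14) or of 11 genes of calcium handling and ion channels (0.13). The lists of the integrated stress response (25 genes, median 0.07), p53 and cell cycle arrest (24, 0.11) and interferon (7, −0.27) had 1 higher call each and the growth signals (21, −0.10) had 1 lower call. Inflammatory genes had 4 higher calls among 25, or 16% (median 0.02), of which mmp9 and mmp13a reached the mean level only through injured SIS3. Another was the chemokine gene ccl25b at 9.64, 5.88, 28.6 and 41.8 FPKM (1.16). Erythroid genes (26, median 0.02) and chromatin genes (24, median 0.01) had 1 call in each direction. Only 7 neural and eye genes and 4 cartilage and bone genes reached the comparison.

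The cytokine gene il11a and its target socs3b were higher after injury with either compound. Il11a was at 2.22, 2.11, 24.7 and 28.9 FPKM (0.27) and socs3b at 15.9, 16.2, 66.4 and 78.3 FPKM (0.22). The retinoic acid synthesis gene aldh1a2 was at 31.6, 24.3, 189.7 and 153 FPKM (0.05).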
